A study of Mus musculus with 8 samples.

Results

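The genes described here are 10 genes of the RANKL system and of osteoclasts, out of 18193 genes measured in lumbar intervertebral discs of mice. They are the ligand gene Tnfsf11, the receptor gene Tnfrsf11a, the decoy receptor gene Tnfrsf11b, the transcription factor gene Nfatc1, and 6 genes used by osteoclasts or their precursors (Oscar, Dcstamp, Ocstamp, Atp6v0d2, Acp5 and Calcr). They were taken by name, through every probe set whose annotation names that gene alone, which gave 19 of the 45101 probe sets on the array.

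All samples came from female BALB/c mice. The 3 naive samples came from mice that were matched for age with the immunized ones and served as controls. The 5 immunized samples came from mice injected on days 0, 21 and 42 with cartilage proteoglycan (100 µg of protein) emulsified with the adjuvant dimethyldioctadecylammonium bromide (2 mg), which leads to autoimmune spondylitis. No group received the adjuvant alone, so the antigen and the adjuvant cannot be told apart. Each RNA sample pooled 6 discs (levels L1 to L6), and 2 samples, naive replicate 3 and immunized replicate 1, carry a joined pair of sample numbers in their descriptions. Neither the age nor the time after the last injection is given in the sources used here.

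RANKL, the product of Tnfsf11, is a TNF family cytokine made by osteoblast lineage cells, hypertrophic chondrocytes, stromal cells and lymphocytes. It binds RANK (Tnfrsf11a) on cells of the monocyte lineage and, through TRAF6, NF-kB, AP-1 and calcineurin, induces NFATc1, which switches on the genes of bone resorption. Osteoprotegerin (Tnfrsf11b) binds RANKL and blocks this step, so the balance of the ligand and its decoy sets how many osteoclasts form. In spondyloarthritis osteoclasts erode bone and vertebral end plates next to inflamed discs.

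Values are log2 expression of a gene relative to its own median over the 8 arrays. A difference of 1 is thus a doubling, and the values of different genes are not levels that can be compared. How finely the deposited numbers are spaced gives a coarse level of each probe set, that of its lowest array. Of the 19 probe sets, 8 lay at 8 or more (log2) and 11 between 4 and 8, so none was in the lowest class, below 4. By the same measure 7 of 8 chondrocyte genes and 4 of 5 nucleus pulposus genes had a probe set at 8 or more, but so had 5 of 5 skeletal muscle, 4 of 4 osteoblast and 7 of 8 neutrophil genes, so this measure does not mark disc tissue alone. In bulk RNA, fewer cells of a type and less RNA per cell cannot be told apart.

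Expression of the ligand, its receptors and the osteoclast genes did not separate immunized from naive discs: none of the 10 genes passed limma's test over all genes. The lowest adjusted p among them was 0.184, for Atp6v0d2, and 0 of the 10 had an unadjusted p under 0.05. In the same test 9.14% of all 18193 genes were called (4.46% higher and 4.68% lower), and 31.1% had an unadjusted p under 0.05. The 2 groups overlapped in all 10 genes, whereas they did not overlap in 23.4% of all genes. The differences were positive for 5 members and negative for 5, with a median of 0.089 against -0.035 over all genes. The intervals are wide, so these p-values do not show that the groups had equal expression.

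**Figure D1:**
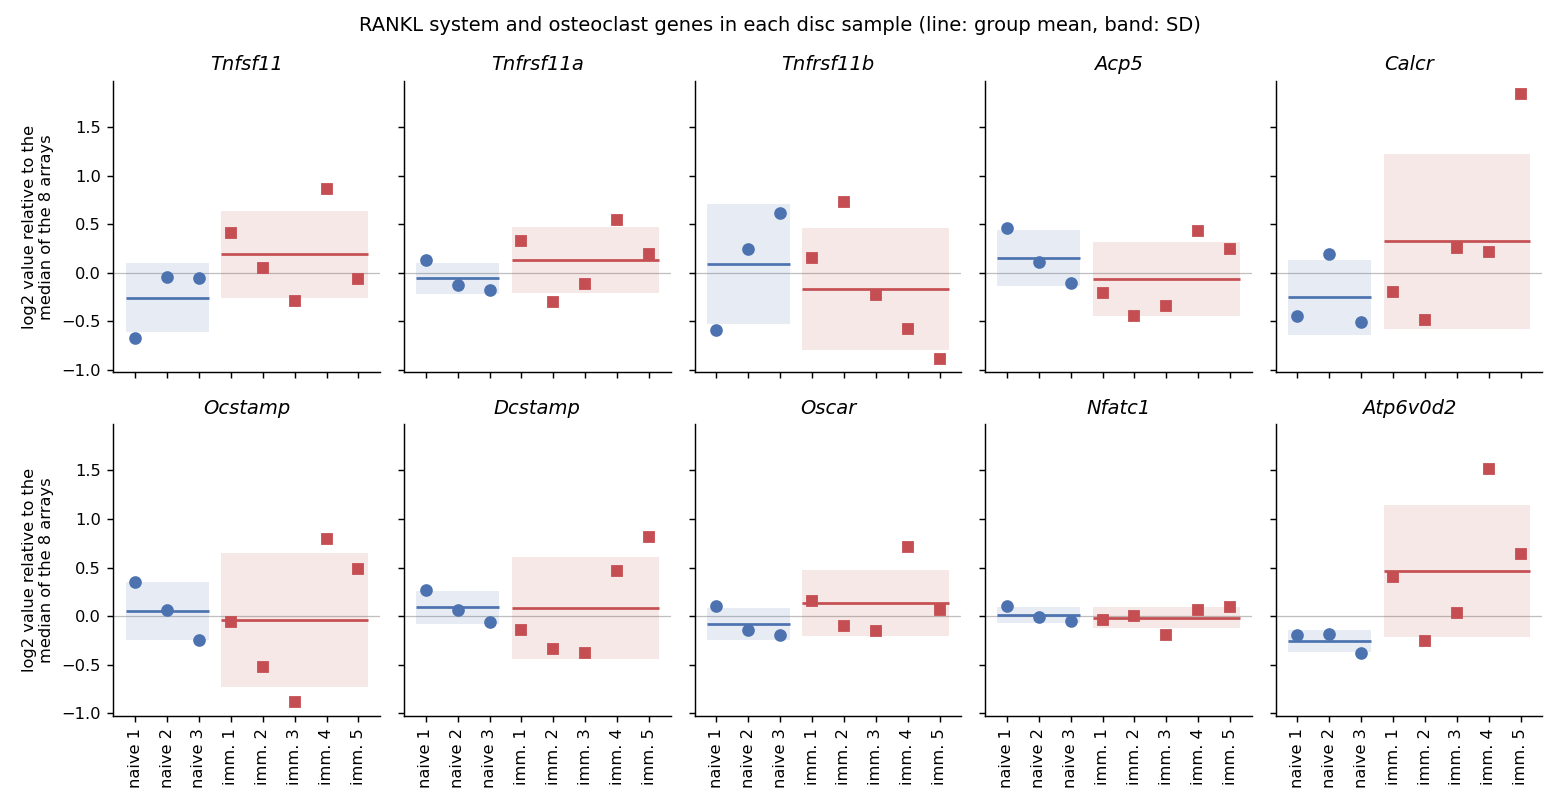
Log2 value of each gene relative to its median over the 8 arrays (vertical axis) in the 3 naive (circles) and 5 immunized (squares) samples; lines are group means and bands 1 SD on either side. The groups overlap in every panel, and immunized replicates 4 and 5 stand high in Dcstamp, Ocstamp and Atp6v0d2 while immunized replicates 2 and 3 stand low in Dcstamp, Ocstamp and Acp5.

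Tnfsf11, the ligand, had values of -0.67, -0.05 and -0.05 in naive replicates 1 to 3 and of 0.40, 0.05, -0.29, 0.86 and -0.06 in immunized replicates 1 to 5. The highest sample was immunized replicate 4 and the lowest naive replicate 1, and immunized replicates 3 and 5 lay below naive replicates 2 and 3. The difference was 0.45 ± 0.26 (SE; 95% interval -0.14 to 1.03; adjusted p = 0.272), a ratio of 1.36 with an interval of 0.908 to 2.05. Without naive replicate 1 it was 0.24. Its probe sets differed in size, at 0.72 ± 0.30 (adjusted p = 0.149 over all probe sets) and 0.18 ± 0.23.

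Tnfrsf11a, which encodes the receptor RANK, lay at 0.13, -0.12 and -0.17 in naive replicates 1 to 3 and at 0.33, -0.30, -0.11, 0.54 and 0.19 in immunized replicates 1 to 5. Immunized replicate 4 was again the highest, and the lowest was immunized replicate 2. The difference was 0.18 ± 0.18 (interval -0.23 to 0.60; adjusted p = 0.527). Its probe sets gave 0.39 ± 0.16 (adjusted p = 0.147 over all probe sets) and -0.03 ± 0.22.

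Tnfrsf11b, the gene of osteoprotegerin, spread widely in both groups. Naive replicates 1 to 3 had -0.59, 0.24 and 0.62, and immunized replicates 1 to 5 had 0.15, 0.73, -0.23, -0.58 and -0.89. Low values were found in naive replicate 1 as well as in immunized replicates 4 and 5. The SD was 0.62 in naive (n = 3) and 0.63 in immunized samples (n = 5), and the difference was -0.26 ± 0.38 (interval -1.12 to 0.60; adjusted p = 0.679). It was -0.60 without naive replicate 1 and 0.0061 without naive replicate 3, so its direction depended on a single sample. Both probe sets were negative, at -0.19 ± 0.50 and -0.33 ± 0.27.

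The balance of ligand and decoy was described for each sample as the Tnfsf11 value less the Tnfrsf11b value, without a test. It was -0.08, -0.29 and -0.67 in naive replicates 1 to 3 and 0.26, -0.68, -0.06, 1.43 and 0.83 in immunized replicates 1 to 5. Immunized replicates 1, 3, 4 and 5 stood above all naive samples, and immunized replicate 2 stood level with the lowest of them. The group means were -0.35 ± 0.30 (SD, n = 3) and 0.36 ± 0.81 (SD, n = 5), a difference of 0.70, which was 0.43 without immunized replicate 4.

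**Figure D2:**
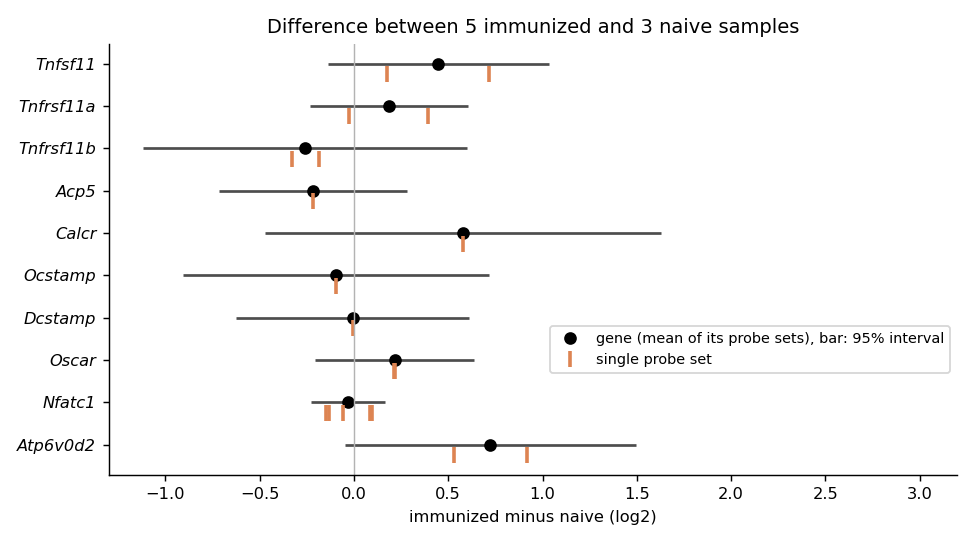
Immunized minus naive difference of each gene on the log2 scale (horizontal axis), as the mean of its probe sets (black point, with limma's 95% interval) and for each of its probe sets (orange ticks). Every interval includes 0, and that of Atp6v0d2 (-0.05 to 1.49) comes closest to leaving it.

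Nfatc1, the transcription factor that RANK signalling induces, varied least. Its values were 0.11, -0.01 and -0.05 in naive replicates 1 to 3 and -0.04, -0.001, -0.19, 0.06 and 0.09 in immunized replicates 1 to 5. With a difference of -0.03 ± 0.09 its interval reached from -0.23 to 0.16 (ratio 0.855 to 1.12; adjusted p = 0.830). As a mean of 5 probe sets, where the other members had 1 or 2, Nfatc1 was the member whose group difference was bounded most tightly. Its 5 probe sets differed in sign and lay between -0.15 and 0.10, with SEs of 0.09 to 0.17, so the tight interval is that of their mean.

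Oscar encodes a collagen-binding receptor that costimulates osteoclast precursors through the adaptor FcRγ. It had 0.10, -0.15 and -0.20 in naive replicates 1 to 3 and 0.16, -0.10, -0.15, 0.71 and 0.06 in immunized replicates 1 to 5. Apart from immunized replicate 4, all samples of both groups lay within -0.20 to 0.16. The difference was 0.22 ± 0.19 (interval -0.21 to 0.64; adjusted p = 0.464), and both probe sets gave nearly that value (0.22 and 0.21).

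Dcstamp and Ocstamp encode membrane proteins needed for precursors to fuse into multinucleated osteoclasts. Dcstamp was at 0.27, 0.06 and -0.06 in naive replicates 1 to 3 and at -0.14, -0.34, -0.38, 0.46 and 0.81 in immunized replicates 1 to 5. Ocstamp was at 0.35, 0.06 and -0.25 in naive replicates and at -0.06, -0.52, -0.88, 0.79 and 0.48 in immunized replicates, in the same order. For both genes immunized replicates 4 and 5 lay above every naive sample, and immunized replicates 2 and 3 lay below every naive sample. The mean differences were close to 0, at -0.01 ± 0.27 for Dcstamp (interval -0.62 to 0.61; adjusted p = 0.989) and -0.09 ± 0.36 for Ocstamp (interval -0.90 to 0.72; adjusted p = 0.882). Their signs are not settled: Dcstamp was positive without naive replicate 1 (0.084) and, among other settings, when each array was centred on its median (0.0069), and Ocstamp was positive without naive replicate 1 (0.055).

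Atp6v0d2, a subunit of the proton pump that acidifies the resorption pit and also acts in fusion, had the largest difference of the 10. The values were -0.20, -0.19 and -0.38 in naive replicates 1 to 3 and 0.40, -0.26, 0.03, 1.52 and 0.64 in immunized replicates 1 to 5. Only immunized replicate 2 lay within the naive range, and immunized replicate 4 stood highest. The difference was 0.72 ± 0.34 (interval -0.05 to 1.49; adjusted p = 0.184), a ratio of 1.65 with an interval of 0.967 to 2.82. For 1 of its probe sets all 5 immunized samples were above all naive ones (0.92 ± 0.34, adjusted p = 0.117 over all probe sets), while the groups overlapped in the other (0.53 ± 0.36). That was 1 of the 19 member probe sets without overlap, against 21.6% of all probe sets, and 3 had an unadjusted p under 0.05, against 28.9%. Of the 19, 0 passed the adjusted limma test, as 6.82% of all 34945 tested probe sets did.

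Acp5 encodes tartrate-resistant acid phosphatase, the classical stain of osteoclasts. It lay at 0.46, 0.11 and -0.11 in naive replicates 1 to 3 and at -0.21, -0.45, -0.34, 0.43 and 0.25 in immunized replicates 1 to 5. Immunized replicates 1, 2 and 3 were below all naive samples, and the highest value was that of naive replicate 1. The difference was -0.22 ± 0.22 (interval -0.72 to 0.28; adjusted p = 0.529).

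Calcr, the calcitonin receptor of mature osteoclasts, was high in a single sample. Its values were -0.45, 0.19 and -0.51 in naive replicates 1 to 3 and -0.19, -0.49, 0.26, 0.21 and 1.84 in immunized replicates 1 to 5. Its value in immunized replicate 5 lay further above the gene's own median than that of any other member in any sample. The difference of 0.58 ± 0.46 (interval -0.47 to 1.63; adjusted p = 0.426) had the widest interval of the 10.

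The members differed more among immunized samples than among naive ones. In all 10 the SD of the immunized samples (n = 5) was above that of the naive samples (n = 3), as it was in 50.8% of all genes. The median immunized SD was 0.49 for the members and 0.14 for all genes, and the median naive SD was 0.23 and 0.14. The exception was Nfatc1, whose immunized SD of 0.11 was below the median of all genes. Immunized replicate 4 was above the gene's median in 9 of 10 members and held the highest value in 5 of them. Immunized replicate 5 was above the median in 8 members, and immunized replicates 2 and 3 in 2 each. In naive replicate 3 it was 1 member, and 6 in naive replicate 1.

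The same 3 samples, naive replicate 1 and immunized replicates 4 and 5, held the 3 highest gene values of Acp5, Ocstamp, Dcstamp and Nfatc1. They also held the 3 lowest gene values of the decoy gene Tnfrsf11b. Single probe sets did not all follow. In 1 probe set of Nfatc1 naive replicate 1 was the lowest sample (-0.29). In the brighter probe set of Tnfrsf11b immunized replicate 3 (-0.33) lay below naive replicate 1 (-0.17). These 3 samples were the highest in 1.5% of all genes and the lowest in 2.71%. They were highest too in Ctsk, which encodes the collagen-degrading protease cathepsin K, in the metalloproteinase gene Mmp9 and in the proton pump gene Tcirg1. Thus they were the 3 highest samples, in varying order, in 6 of the 10 osteoclast markers. Acp5, whose 3 highest samples defined the set, is 1 of these 6. Among the 18 resorption genes, which include Ctsk, Mmp9 and Tcirg1, the number was 5. Ctsk had 0.26, -0.03 and -0.31 in naive replicates 1 to 3 and 0.03, -0.28, -0.49, 0.78 and 0.46 in immunized replicates 1 to 5, a difference of 0.13 ± 0.28 (adjusted p = 0.792) that was -0.04 without immunized replicate 4. This pattern was chosen after the values were seen and is given as a description, with no test.

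Promoter sequence is shown for Acp5 and Oscar, which are known targets of NFATc1 and of the transcription factor MITF, and for the ligand gene Tnfsf11. From the RefSeq table (GRCm38.p6) windows of 5 of the 10 genes were used, 8 in all. Any member windows on 1 chromosome were left out, though the windows of all genes kept that chromosome. The 250 bases before the annotated start are given 5′ to 3′ on the gene's strand, which is the minus strand for all 3, at chr9:22130599-22130848 (Acp5, 1 of its 3 annotated starts, chosen because its window holds both motifs), chr7:3616158-3616407 (Oscar) and chr14:78308044-78308293 (Tnfsf11). Capitals mark the NFAT core GGAAA and the E-box CACGTG or CATGTG that MITF can bind, on either strand (TTTCC and CACATG on the other strand).
Acp5: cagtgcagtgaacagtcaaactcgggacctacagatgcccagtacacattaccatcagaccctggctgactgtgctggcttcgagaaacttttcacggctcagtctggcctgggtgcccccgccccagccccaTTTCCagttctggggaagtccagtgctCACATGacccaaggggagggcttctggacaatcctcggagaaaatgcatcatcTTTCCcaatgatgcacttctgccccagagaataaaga
Oscar: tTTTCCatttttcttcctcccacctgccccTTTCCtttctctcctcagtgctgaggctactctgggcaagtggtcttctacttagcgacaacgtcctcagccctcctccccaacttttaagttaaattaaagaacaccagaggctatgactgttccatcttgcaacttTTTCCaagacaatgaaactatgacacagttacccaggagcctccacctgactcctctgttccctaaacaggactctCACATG
Tnfsf11: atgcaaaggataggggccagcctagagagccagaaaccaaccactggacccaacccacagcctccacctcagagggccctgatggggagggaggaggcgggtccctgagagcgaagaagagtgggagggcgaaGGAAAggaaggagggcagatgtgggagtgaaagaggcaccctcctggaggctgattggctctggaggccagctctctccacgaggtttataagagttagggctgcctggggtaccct
Acp5 held 2 NFAT cores and 1 E-box, Oscar 3 and 1, and Tnfsf11 a single NFAT core. Among the 8 windows, 6 held the NFAT core and 2 the E-box, against 55.6% and 17.6% of all 32851 windows of this length. A match describes the letters and is not a bound site, and the arrays do not bear on binding.

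By a rule for the member with the largest moderated t, the genes most alike to Atp6v0d2 were Prdm1, Kcnj15 and Lipa. Likeness was the root mean square distance of the log2 values over the 8 samples, which was 0.20 for Prdm1, 0.26 for Kcnj15 and 0.29 for Lipa, against a median of 0.69 over all genes. Prdm1 encodes BLIMP1, a repressor that acts in osteoclasts and in plasma cells. It had -0.21, -0.02 and -0.53 in naive replicates 1 to 3 and 0.61, -0.26, 0.02, 1.13 and 0.65 in immunized replicates 1 to 5. Kcnj15 encodes a potassium channel and Lipa the lysosomal acid lipase. None of these 3 passed limma's test either (adjusted p from 0.140 to 0.271).

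Other genes of the pathway were followed in 7 lists. Of their 87 measured genes that are not among the 10, 8 rose and 2 fell, beside 4.46% of all genes called higher and 4.68% lower. The median difference was 0.24, against -0.035 over all genes. Of the 87, 34 had an unadjusted p under 0.05, as 31.1% of all genes did, with 29 higher (12.9% of all genes) and 5 lower (18.2%). With all samples 10 genes were called. Omitting a naive sample gave 6 (replicate 1), 0 (replicate 2) or 2 (replicate 3), and omitting an immunized sample gave 2, 22, 7, 6 or 5 for replicates 1 to 5 in turn. Of the 10, 5 were lost after quantile normalization (Atp6v1c1, Cd44, Il1b, Pth1r and Vdr).

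**Figure D3:**
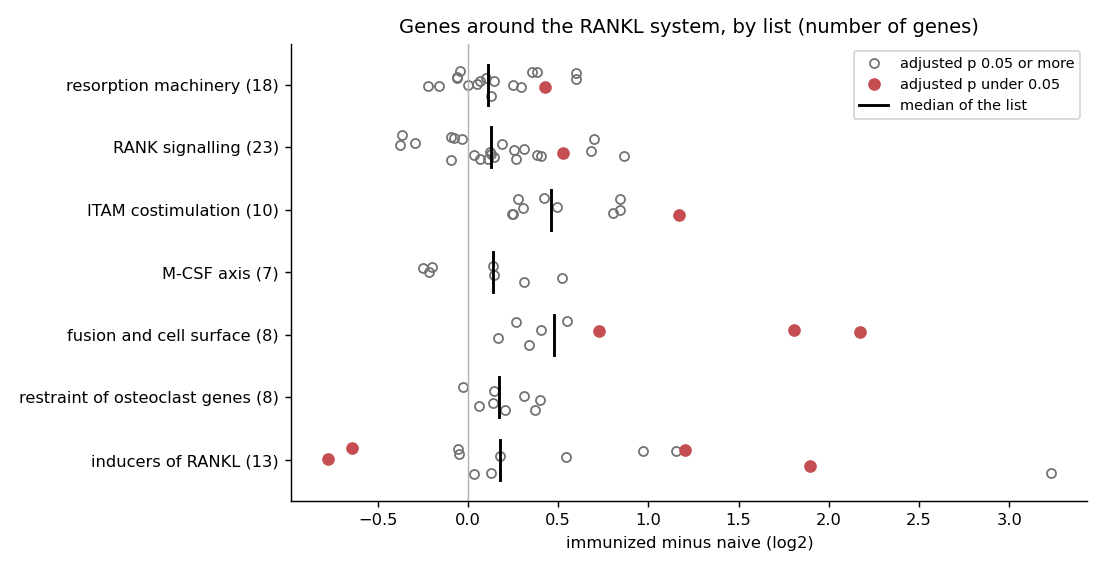
Immunized minus naive difference on the log2 scale (horizontal axis) for each gene of 7 lists around the RANKL system; filled points have an adjusted p under 0.05 in limma, and black bars are list medians. The called genes lie mostly in the lists of fusion and cell surface proteins and of inducers of RANKL.

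Among inducers of RANKL, 2 of 13 rose and 2 fell (median difference 0.18). Ptger4, the prostaglandin E2 receptor EP4 through which stromal cells raise RANKL, rose by 1.20 ± 0.15 (adjusted p = 0.00903), and all 5 immunized samples (-0.24 to 0.43) lay above the naive ones (-1.10 to -0.90). Il1b, the gene of interleukin 1β, rose by 1.90 ± 0.47 (adjusted p = 0.0412). Which cells of the bulk samples these rises came from was not tested. The receptor genes Pth1r, for parathyroid hormone, and Vdr, for vitamin D, both of which raise RANKL in osteoblast lineage cells, fell by 0.78 ± 0.19 and 0.64 ± 0.17 (adjusted p = 0.0427 and 0.0461). In limma the Vdr call was also lost when arrays were centred on their medians (adjusted p = 0.0504) and with a trended and robust variance (0.0609).

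Il6 stood at -1.48, -1.45 and -1.66 in naive replicates 1 to 3 and at 3.97, 0.54, -0.11, 4.01 and 0.11 in immunized replicates 1 to 5. Il6 had 1 probe set, which fell in the lowest level class, below 4 in its lowest array, so its low values may lie near the floor. Its difference of 3.23 ± 1.03 did not pass (adjusted p = 0.0763), although with array weights it was 4.39 and passed limma's test (0.00863). Immunized replicates 1 and 4, far above the rest in Il6, were also the highest in Tnfsf11 and Tnfrsf11a. With immunized replicate 5 they were the highest in Ptgs2, the inducible prostaglandin synthase (1.15 ± 0.59, adjusted p = 0.216). Immunized replicates 1 and 4 were likewise the highest in Il1b and in the macrophage marker Cd14, so their rank was not particular to the RANKL system. It was picked after the values were seen and was not tested. Neither Il11 (0.97 ± 0.42, adjusted p = 0.150), Tnf (0.18 ± 0.11, adjusted p = 0.303) nor Il17a (-0.05 ± 0.09, adjusted p = 0.758) passed. With array weights Il11 (1.54, adjusted p = 0.0277) and Ptgs2 (1.47, adjusted p = 0.0403) did pass in limma. Those weights called 5900 of all 18193 genes, against 1663 in the main fit.

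In the pathway below the receptor, 1 of 23 genes of RANK signalling rose, Ppp3r1, the regulatory subunit of calcineurin (0.53 ± 0.10, adjusted p = 0.0262). At an unadjusted p under 0.05, 7 of the 23 were higher and 2 lower. The lower ones were Ppp3ca, a catalytic subunit of calcineurin (-0.38 ± 0.12, adjusted p = 0.0718), and the calcium-dependent kinase gene Camk4 (-0.29 ± 0.11, adjusted p = 0.104), both named after their values were seen. The adaptor gene Traf6 differed by 0.04 ± 0.09 (adjusted p = 0.828), with a sign that turned without naive replicate 1 (-0.07). Of 10 genes of ITAM costimulation, which supplies the calcium signal beside RANK, only Btk, the Bruton tyrosine kinase, rose (1.17 ± 0.26, adjusted p = 0.0330), although all 10 differences were positive. The M-CSF axis keeps precursors alive. Of its 7 genes 0 passed (3 unadjusted, 2 of them higher), with Csf1 at -0.25 ± 0.15, Il34 at -0.20 ± 0.15 and the receptor gene Csf1r at 0.14 ± 0.19. The sign of Csf1 turned (0.075) when only its brightest probe sets were used. None of 8 genes that restrain osteoclast genes passed limma's test, and 0 had an unadjusted p under 0.05.

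Of 18 genes of the resorption machinery 1 rose, the proton pump subunit gene Atp6v1c1 (0.43 ± 0.11, adjusted p = 0.0454). All its immunized values (-0.07 to 0.39) lay above the naive ones (-0.29 to -0.20). Mmp9 differed by 0.15 ± 0.24 (adjusted p = 0.707). Of 8 fusion and cell surface genes 3 rose, namely Adam8, a metalloproteinase that promotes fusion (2.17 ± 0.26, adjusted p = 0.00903), the integrin gene Itgam (1.81 ± 0.29, adjusted p = 0.0164) and the hyaluronan receptor gene Cd44 (0.72 ± 0.13, adjusted p = 0.0214). Adam8, Itgam and Cd44 are also expressed by neutrophils and macrophages.

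Macrophages are the lineage osteoclasts arise from, so their markers are given beside those of osteoclasts. Of 10 macrophage markers 7 rose and 0 fell, beside 4.46% of all genes called higher, with a median difference of 1.15. Csf1r, Cd68 and C1qa did not pass limma's test (adjusted p = 0.645, 0.269 and 0.0976). The mean of the 10 markers ranged from -0.97 to -0.46 in naive and from -0.03 to 0.73 in immunized samples. Of 10 osteoclast markers, 6 of them members, 0 passed limma's test (0 at an unadjusted p under 0.05), with a median of 0.18. The osteoclast mean was 0.16, -0.07 and -0.31 in naive replicates 1 to 3 and -0.02, -0.34, -0.08, 0.55 and 0.55 in immunized replicates 1 to 5. Neutrophil markers differed between the groups in the same direction as those of macrophages: 3 of 8 rose (S100a9, Cxcr2 and Mmp8), all 8 were higher at an unadjusted p under 0.05, and their median difference was 0.58. The macrophage mean was highest in immunized replicates 1 and 4, and the neutrophil mean in immunized replicates 3 and 5 (0.55 each). The difference between the lists was not tested.

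**Figure D4:**
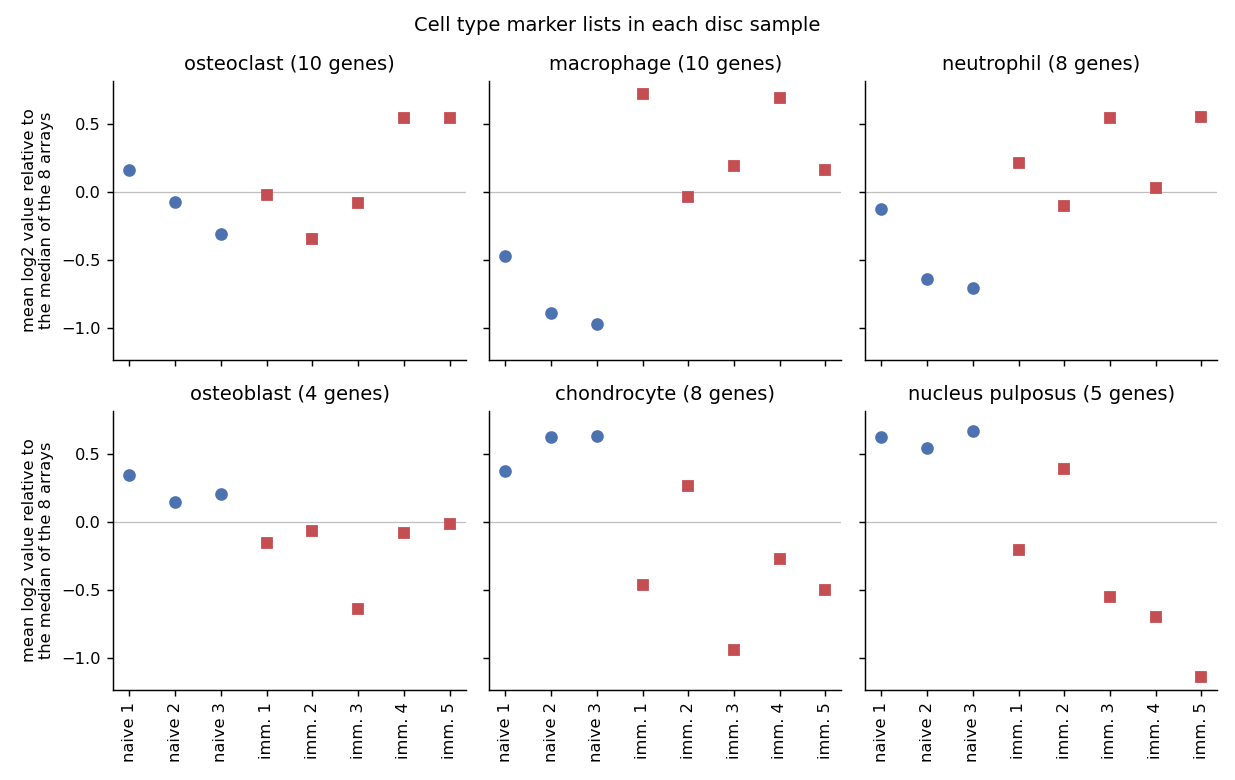
Mean log2 value, relative to each gene's median over the 8 arrays (vertical axis), of 6 cell type marker lists in each naive (circles) and immunized (squares) sample. The macrophage means of the groups are apart (up to -0.46 in naive, from -0.03 in immunized samples), while the osteoclast means overlap and are highest in immunized replicates 4 and 5.

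Tissues beside or within the disc also differed between samples, and their part in the osteoclast values was not tested. Markers of osteoblasts (4 measured), which make both RANKL and osteoprotegerin, had means of 0.14 to 0.34 in naive and -0.64 to -0.01 in immunized samples, 1 of 4 being called lower. The 8 chondrocyte markers had means of 0.38 to 0.63 and -0.94 to 0.26, with 3 called lower, and the 5 nucleus pulposus markers 0.54 to 0.67 and -1.14 to 0.39, with 1 lower. In naive replicate 1, which was high in Acp5, Ctsk and Mmp9, the osteoblast and B cell means were also at their highest (0.34 and 0.60). The skeletal muscle mean was at its lowest there (-0.72). Single genes varied in that sample: osteoblast markers ranged from -0.19 (Ibsp) to 0.66 (Sp7). B cell markers ranged from -0.54 (Ms4a1, its lowest sample) to 1.38 (Cd79a). Immunized replicates 4 and 5 held the lowest nucleus pulposus means (-0.70 and -1.14).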

How the data were processed

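Total RNA of 8 disc samples, 3 naive and 5 immunized, was measured on Affymetrix arrays with 1 sample each; groups come from the sample titles. The deposited values are on a log2 scale, 1 for each probe set in each sample, and were made by RMA per the submitters' processing notes. The version and the log base are not given in the sources used here. Each probe set has a median of 0 (to within 5e-07), so the deposited log2 values were also centred per probe set: group differences are kept, and levels are lost. The coarse level was read from the spacing of the printed numbers, which depends on the size of the number each was computed from.

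A gene's value (18193 genes) was the mean of the probe sets that name it alone in the platform annotation. Groups were compared with limma's lmFit and eBayes functions (version 3.58.1, in R 4.3.3), two-sided and without covariates. P-values were adjusted over all genes by the Benjamini-Hochberg method, and 0.05 was the threshold. SEs and 95% intervals are limma's, and the test was checked on simulated data. The number of arrays limits the precision. The titles call the replicates biological. Members and lists were chosen with earlier results of these data known. Named are all members, the called genes of the 7 pathway lists (at most 6 a list), 12 further genes set by name and the 3 genes most alike to the leading member; others were chosen after their values were seen. The alternatives tried were other scalings, probe set filters, variance models and array weights, a block on the replicate number, and samples left out.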

Additional observations from a re-analysis of the deposited data

Results flagged for a closer look

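Among the 52 values examined in the 5 immunized samples (named genes, list means and the balance of Tnfsf11 and Tnfrsf11b), 4 had a sample far from the other immunized samples. Chance alone gives such a sample in about 5% of groups. None of the 4 was a member. Ppp3r1 was low in immunized replicate 4 (-0.0793, the next being 0.21), and Ptger4 in immunized replicate 2 (-0.2384, the next being 0.25). The mean of the fusion and cell surface list was low in immunized replicate 2 (-0.1849, the next being 0.22), and that of the osteoblast list in immunized replicate 3 (-0.638, the next being -0.15).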

How the results depend on the processing

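The call on the members, 0 of 10, held under all the other settings run at 0.05, and at 0.1 in the main fit. A threshold of 0.01 could add no call, and settings that called few or 0 of all genes left little room for one. The lowest adjusted p of a member over those settings was 0.0544 in limma (Atp6v0d2 with array weights). Also under 0.1 were Tnfrsf11a with array weights (0.0675) and Atp6v0d2 without immunized replicate 2 (0.0780). Over all genes the calls numbered 908 after quantile normalization (540 higher, 368 lower; list genes 5), 5900 with array weights (2495 and 3405; list genes 39), 3783 at a threshold of 0.1 (1631 and 2152; list genes 22), 54 at 0.01 (41 and 13; list genes 2) and 0 without both samples of joined numbers in limma (list genes 0; 1621 higher and 2173 lower unadjusted). With each probe set tested singly 2384 probe sets were called (1261 higher) and 15 list genes. Leaving out single samples gave 21 to 3003 calls, 17 to 1293 higher and 4 to 1710 lower, and 0 to 22 list genes. The replicate number as a block, which leaves 3 pairs, gave 7 calls in limma (6 higher, 1 lower, and 1845 and 2057 unadjusted) and 0 list genes. The deviations of same-numbered samples correlated at -0.05, 0.24 and -0.10. These values were not set against those of differently numbered samples, so they do not settle whether the numbers pair the samples. Under that block Tnfrsf11b (0.12), Ctsk (-0.22), Csf1r (-0.050) and Mmp9 (-0.060) turned sign. Acp5 (-0.49), Dcstamp (-0.38) and Ocstamp (-0.54) were lower there, with an unadjusted p under 0.05 in limma. Higher at that level were Atp6v0d2, Oscar and Tnfrsf11a with array weights, where 3308 of all 18193 genes were higher and 4808 lower. So were Atp6v0d2 without immunized replicate 2 (2584 and 3634 of all genes), and Atp6v0d2 and Tnfsf11 without immunized replicate 3 (2086 and 2883). Array weights turned Ocstamp (0.015), Traf6 (-0.079) and Il17a (0.0026), quantile normalization turned Dcstamp (0.012) and Nfatc1 (0.00064), median centring turned Dcstamp (0.0069), and the brightest probe sets, a setting added after seeing the data, turned Csf1 (0.075) and Traf6 (-0.14). Without single samples Tnfrsf11b ranged from -0.60 to 0.0061, Ocstamp from -0.30 to 0.12, Dcstamp from -0.19 to 0.11, Nfatc1 from -0.066 to 0.014, Ctsk from -0.043 to 0.27, Traf6 from -0.075 to 0.10 and Mmp9 from -0.030 to 0.34. The cause of these changes was not tested; none of these genes had passed.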

Other observations

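Further lists covered cell types that make RANKL or lie beside the disc. Of 5 T cell markers 1 rose, and the mean of the list reached 0.38 in the highest immunized sample against -0.43 in the lowest naive one, with overlap between the groups. In limma 0 of 5 B cell markers passed (1 lower, unadjusted), 0 of 6 osteocyte markers (1 lower, unadjusted) and 0 of 7 fibroblast and annulus markers (0 unadjusted). Of 5 markers of hypertrophic chondrocytes, which make RANKL during growth plate resorption, 3 fell (Alpl, Pth1r and Ihh). Col10a1 was lower without passing limma's test (-1.60 ± 0.43, adjusted p = 0.0525), and Mmp13 was higher (0.37 ± 0.22, adjusted p = 0.273). Alpl is also the called osteoblast marker, and Pth1r is also a called inducer of RANKL. The mean of the 5 was 0.47 to 0.52 in naive and -0.77 to 0.14 in immunized samples. The erythroid mean (3 genes) and the skeletal muscle mean (5 genes) overlapped between groups, and 0 of their genes had an unadjusted p under 0.05 in limma.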
